A study of Mus musculus with 24 samples.

Results

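Early growth response (EGR) factors, nuclear receptor 4A (NR4A) factors and the NAB corepressors were followed as 1 group of 9 genes, Egr1, Egr2, Egr3, Egr4, Nr4a1, Nr4a2, Nr4a3, Nab1 and Nab2. They were chosen by name, through the gene symbol of the array annotation or an older synonym, with earlier results of these data known. The group holds 11 of the 41174 probes and 9 of the 19525 genes that were named on the array. Egr3 and Nab1 have 2 probes each, and each gene is described by the probe with the higher mean signal over the 24 arrays.

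RNA came from immortalized mouse embryonic fibroblasts of 1 Ku70-/- line, in which Xrcc6, the gene for the DNA end-joining protein Ku70, is deleted, so every group including the controls lacks that protein. The first set has 15 arrays with 3 biological replicates each of untreated controls labelled 4 hr, KBrO3 alone (20 mM for 1 hr, then 3 or 23 hr of repair) and co-exposure (150 uM BPA for 1 hr, BPA with 20 mM KBrO3 for 1 hr, then BPA for 3 or 23 hr). The second set has 9 arrays with 3 replicates each of its own untreated controls, whose label gives no time, and of 150 uM BPA for 4 or 24 hr by the labels, an exposure that the Methods count as 1 hr longer. KBrO3 is an oxidizing agent that damages DNA bases, and BPA, bisphenol A, is a plasticizer with estrogenic activity. The labels describe a wash and fresh medium for KBrO3 and for co-exposure but not for the controls, so the agent and the change of medium cannot be told apart. Times are counted from the start of the KBrO3 treatment, and no array labelled as a 24-hr control was used, so both times were compared with the same controls of each set.

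EGR proteins are zinc finger transcription factors of the immediate early class, whose genes are switched on within minutes of growth factor, stress or calcium signals without new protein synthesis. ERK kinases, through serum response factor and its ELK partners, and CREB-family factors are the known routes to their promoters. NR4A proteins are orphan nuclear receptors that are controlled mostly by how much of them is made, and their genes respond to the same kinds of signal. NAB1 and NAB2 bind EGR proteins and recruit the NuRD chromatin complex to hold them back, and Nab2 is itself an EGR target, which closes a feedback loop.

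Promoter sequences are given as a description, and a part of their motifs in the changes below was not tested. The 4 stretches are shown because they carry motifs that the known routes use. Nr4a3 is among them, although its own change could not be tested. Upstream windows of 250 bases before a start site, from RefSeq (GRCm38.p6), were matched for 7 of the 9 members, and not for Egr1 or Egr3. Capitals mark TGACG, the core of the cAMP response element bound by CREB, on either strand, which reads CGTCA on the other strand, and in Egr2 also the CArG box, the serum response factor motif. The Egr4 window lies at chr6:85513590-85513839 on the minus strand, the Nr4a1 window at chr15:101266596-101266845 on the plus strand and the Nr4a3 window at chr4:48045055-48045304 on the plus strand. The Egr2 stretch of 30 bases lies at chr10:67537797-67537826 on the plus strand.
Egr4: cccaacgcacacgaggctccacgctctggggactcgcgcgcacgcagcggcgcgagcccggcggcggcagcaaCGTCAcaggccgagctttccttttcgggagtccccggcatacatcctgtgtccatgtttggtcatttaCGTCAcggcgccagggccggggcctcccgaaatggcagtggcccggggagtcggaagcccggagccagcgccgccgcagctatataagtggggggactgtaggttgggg
Nr4a1: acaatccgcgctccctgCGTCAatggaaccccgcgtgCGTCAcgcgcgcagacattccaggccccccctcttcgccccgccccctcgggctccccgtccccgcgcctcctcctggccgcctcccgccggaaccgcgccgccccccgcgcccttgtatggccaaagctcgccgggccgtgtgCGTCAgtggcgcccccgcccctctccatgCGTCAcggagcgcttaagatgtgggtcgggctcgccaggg
Nr4a3: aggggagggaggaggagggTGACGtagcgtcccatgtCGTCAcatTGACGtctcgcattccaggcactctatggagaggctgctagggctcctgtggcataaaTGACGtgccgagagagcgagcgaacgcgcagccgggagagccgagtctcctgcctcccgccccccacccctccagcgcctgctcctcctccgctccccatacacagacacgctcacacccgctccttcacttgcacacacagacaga
Egr2: CCATATATGGgcagcgaCGTCAcgggtatt

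The 7 members have 11 windows, of which 5 belong to Egr2 and in part overlap. The core TGACG was present in 8 of the 11, which cover 6 of the 7 members, against 17.8% of all 32851 windows. Nr4a1, Nr4a2 and Nr4a3 had 4 copies each, those of Nr4a1 beginning 233, 213, 69 and 40 bases before the start. Egr4 had 2 copies, as had 3 of the 5 Egr2 windows while the other 2 had none, Nab1 had 1 and Nab2 had none. A CArG box was found in 4 of the 5 Egr2 windows, against 1.47% of all windows, and in no other member window. The EGR motif GCGNGGGCG occurred 3 times in Nab1 and 1 time each in Nr4a1 and Nr4a2, against 4.7% of all windows with at least 1. The full element TGACGTCA, which contains TGACG and occurs in 1.55% of windows, and the NR4A motif AAAGGTCA, which occurs in 1.34%, were not in these windows. TATAAA was in the Nr4a2 window and in 12.4% of all windows. All motifs were searched on both strands, and a match describes letters and not binding.

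Array quality set how well each member could be read. The software called 57.7 to 68.1% of spots well above background on the arrays of the first set and 76.4 to 79.4% on those of the second. The median SD between replicates of a probe, on the log2 scale, was 0.106 in the first set, against 0.318 in the other, so smaller differences could be called in the first. All 10 fibroblast markers were well above background on every control array, while of the 5 leukocyte markers Cd68 was on 3, Csf1r on 2, Adgre1 on 1 and Ptprc and Itgam on none of the 3 controls of the first set, and Itgam was on all 3 of the second. The summed signal of the 5 leukocyte markers, in units of the 75th percentile, rose from 0.153 to 0.197 in controls to 0.633 to 0.681 after KBrO3 and 0.483 to 0.487 after co-exposure at 4 hr, mostly through Cd68. At 4 hr the sum of the 4 neural markers was 0.426 to 0.504 after KBrO3 and 0.696 to 0.779 after co-exposure (controls 0.294 to 0.363), and that of the 5 muscle markers 0.0839 to 0.101 and 0.183 to 0.195 (controls 0.0617 to 0.0711). The 5 epithelial markers summed to 1.73 to 1.75 and 1.07 to 1.12 (controls 0.947 to 1.05) and the 4 endothelial markers to 0.174 to 0.187 and 0.166 to 0.216 (controls 0.106 to 0.145). The epithelial sum was mostly Krt19, with a mean log2 signal of -0.14 in controls and 0.73 after KBrO3, while Krt18 was at -4.42 and -4.99 and Epcam at -5.27 and, not well above background, -6.18. Krt8 was at -6.48, not well above background, in controls, -5.13 after KBrO3 and -4.37 after co-exposure, and Cdh1 was not well above background in these groups. Of the 3 epithelial markers tested, 2 were called higher and 0 lower after KBrO3 at 4 hr. Of the endothelial markers Kdr was at -5.25 and -3.72 and Tek at -3.51 and -3.49, and Cdh5 and Pecam1 were not well above background in either group. The fibroblast marker sum was 1820 to 1930 in those controls, 1660 to 1750 after KBrO3 and 1310 to 1350 after co-exposure at 4 hr, and 708 to 796 and 497 to 578 at 24 hr. At 24 hr the epithelial sum was 0.75 to 0.911 after KBrO3 and 0.295 to 0.356 after co-exposure, the leukocyte sum was 0.304 to 0.351 and 0.414 to 0.505, the endothelial sum was 0.139 to 0.176 and 0.0873 to 0.103, and the neural and muscle sums overlapped the controls. In the second set the epithelial sum was 0.218 to 0.716 after BPA at 24 hr (controls 1.06 to 2.26) and the fibroblast sum 574 to 685 (controls 703 to 809). Their part in the results was not tested. Xrcc6 gave a signal on every array, at 1.02 to 1.16 in the first controls, and the probe's position relative to the deletion is not known here, so it checks nothing.

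Of the 9 members, 8 could be tested. The Nr4a3 probe was well above background on 1 of the 24 arrays and not on the others. No spot of a member was saturated. All values below are log2 signals relative to the array's 75th percentile, and a member was called altered at an adjusted p below 0.05 over all probes tested with a change beyond 1.5-fold. Levels are compared between groups for 1 probe at a time and never between probes.

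**Figure D1:**
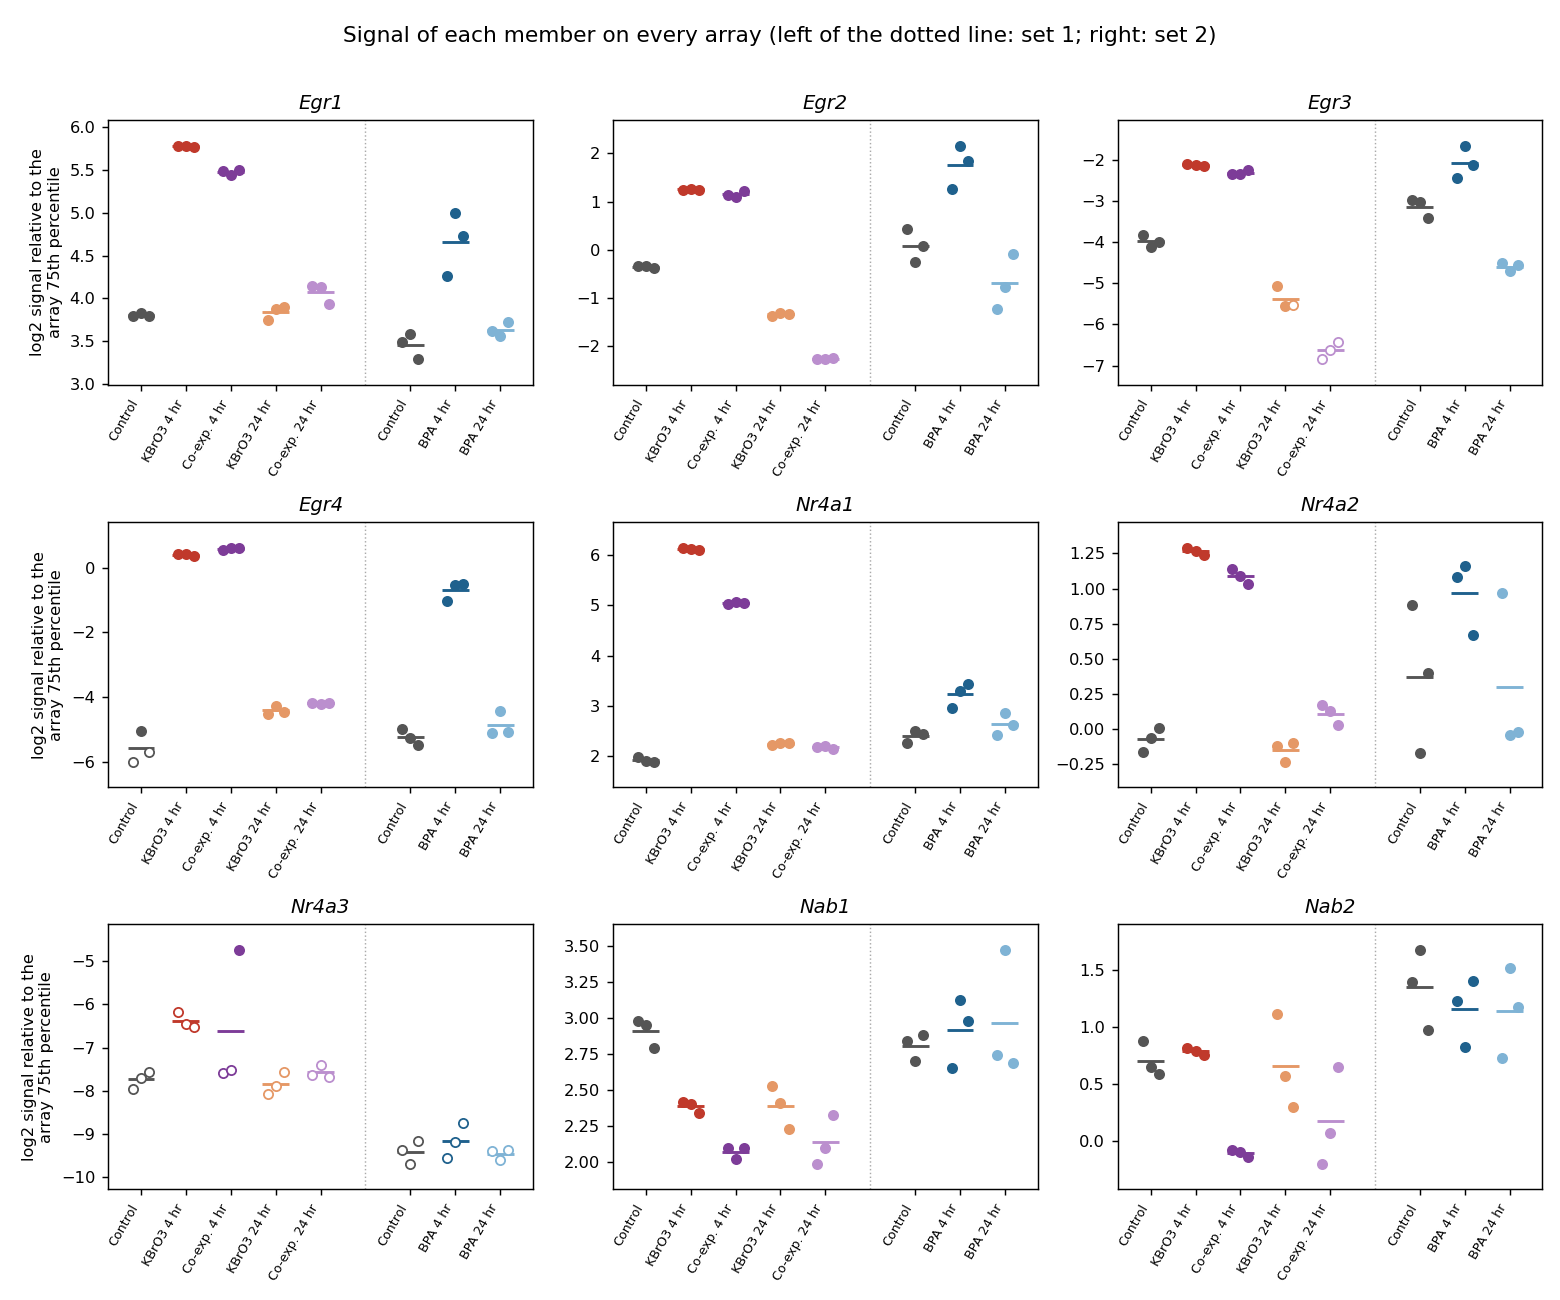
Each panel shows 1 member, with 1 point per array, the groups on the x axis and the log2 signal relative to the array's 75th percentile on the y axis, with bars for the means of 3 arrays, open points where not well above background and a dotted line between the 2 array sets. Egr1 to Egr4, Nr4a1 and Nr4a2 stand above every control at 4 hr after KBrO3 and co-exposure.

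KBrO3 alone raised 6 of the 8 tested members at 4 hr and lowered none. Across all probes of the first set 23.0% were called higher and 22.5% lower in this comparison. The 6 were the 4 EGR genes, Nr4a1 and Nr4a2, and for the 5 that every control array measured well above background the fold changes ran from 2.519 for Nr4a2 to 18.49 for Nr4a1. The median log2 difference over the 8 members was 1.74, against 0.02 over all genes tested. All 6 were also called by the stricter limits of the Methods, a Bonferroni-adjusted p below 0.01 with the same fold limit, by which 14.7% of probes were higher and 14.1% lower.

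Egr4, an EGR family member best known from neurons and germ cells, was near background in the controls. These read -5.98, -5.05 and -5.70, and 1 of the 3 was well above background, so the size of its rise is uncertain. Egr4 passed the filter of the first set only through treated groups, where it was high. Every count against the first-set controls that includes Egr4 carries that limit. The 3 arrays after KBrO3 read 0.43, 0.42 and 0.35, far above every control. The fitted difference was 5.98 (SE 0.17, 95% CI 5.60 to 6.35, adjusted p = 1.7e-11), and within the slide that held 1 control and the 3 treated arrays it was 6.10. With normexp background correction the difference was 2.62, so the place of Egr4 above or below Nr4a1 depends on the correction.

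Nr4a1, also called Nur77, was measured on every array. The controls read 1.97, 1.91 and 1.89 and the KBrO3 arrays 6.15, 6.13 and 6.11. These groups lie more than 4 log2 units apart and do not overlap. The difference was 4.21 (SE 0.035, 18.49-fold, adjusted p = 1.92e-15), and it stayed between 3.87 and 4.38 over the alternatives run.

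Egr1, the founding member of the family and a widely used marker of ERK activity, already gave a strong signal in the controls. It read 3.80, 3.83 and 3.79 there and 5.78, 5.78 and 5.77 after KBrO3, again without overlap. The difference was 1.97 (SE 0.055, 3.919-fold, adjusted p = 1.25e-11). Egr2, known for its role in myelinating Schwann cells, read -0.35, -0.34 and -0.38 in controls and 1.24, 1.27 and 1.24 after KBrO3, a rise of 1.61 (SE 0.036, 3.047-fold, adjusted p = 2.14e-12). Its probe is printed 10 times on the array, so each value averages up to 10 spots.

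Egr3, which acts with Egr2 in lymphocytes and in muscle spindles, was dim but measured. The controls read -3.82, -4.12 and -4.00 and the KBrO3 arrays -2.09, -2.11 and -2.14, all 6 well above background. It rose by 1.87 (SE 0.13, 3.657-fold, adjusted p = 5.65e-08), but with normexp correction the difference was 0.17 and the call was lost. Its second probe stayed below that level on these arrays and was not tested. Nr4a2, or Nurr1, a factor of dopamine neurons, read -0.16, -0.06 and 0.01 in controls and 1.29, 1.27 and 1.24 after KBrO3, a rise of 1.33 (SE 0.056, 2.519-fold, adjusted p = 4.6e-10).

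Nr4a3, or Nor1, could not be tested. Its probe read -7.95, -7.69 and -7.56 in the controls and -6.18, -6.46 and -6.51 after KBrO3, with none of these 6 arrays well above background. In co-exposed cells at 4 hr it read -7.58, -7.51 and -4.74, and replicate 3 was the 1 array well above background. No fold change is given for it.

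The corepressors did not rise with the factors that they bind. Nab1 read 2.98, 2.95 and 2.79 in controls and 2.42, 2.40 and 2.34 after KBrO3, so the 3 treated arrays lay below every control. The difference was -0.52 (SE 0.092, adjusted p = 0.000262), or 1.43-fold, which is inside the 1.5-fold limit (with quantile normalization it was called at -0.70). Its second probe gave a difference of 0.00 (SE 0.1, adjusted p = 0.99), so the Nab1 probes disagree. Nab2 read 0.88, 0.65 and 0.59 in controls and 0.82, 0.79 and 0.76 after KBrO3, a difference of 0.08 (95% CI -0.39 to 0.54, adjusted p = 0.75).

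Co-exposure altered all 8 tested members at 4 hr, with the same 6 factors higher and both corepressors lower, against 29.9% of all probes higher and 24.4% lower. By the Bonferroni limit, which called 16.4% of probes higher and 16.2% lower, the 6 factors were called and the corepressors were not (Bonferroni-adjusted p = 0.039 for Nab1 and 1 for Nab2). The comparison shares its control arrays with that of KBrO3 alone. Egr4 read 0.55, 0.61 and 0.59, a fitted difference of 6.16 (SE 0.17, adjusted p = 9.81e-12) from the controls that were mostly not well above background, and of 2.80 with normexp correction. Nr4a1 read 5.02, 5.07 and 5.05, a rise of 3.12 (SE 0.035, 8.706-fold, adjusted p = 1.28e-14). Egr1 was 3.183-fold, Egr3 3.18-fold, Egr2 2.832-fold and Nr4a2 2.226-fold above control, each with 3 of 3 arrays above every control.

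Both corepressors fell in co-exposed cells at 4 hr. Nab1 read 2.10, 2.02 and 2.10, a difference of -0.83 (SE 0.092, adjusted p = 3.69e-06), but its second probe gave -0.08 (SE 0.1, adjusted p = 0.499). Nab2 read -0.08, -0.10 and -0.14, below every control, and differed by -0.82 (SE 0.21, adjusted p = 0.00374). All co-exposed arrays at 4 hr lay on a slide without controls, so slide and treatment cannot be told apart there, nor in the comparison of co-exposure with KBrO3 alone at 4 hr. The Egr3 call was lost with normexp correction, where the difference was 0.04.

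Set directly against KBrO3 alone at 4 hr, co-exposure gave lower Nr4a1 and Nab2 and altered none of the other 6 members. Of all probes 8.21% were called lower in this comparison and 11.9% higher. Nr4a1 had a mean of 5.05 after co-exposure and 6.13 after KBrO3, with the lowest KBrO3 array at 6.11 and the highest co-exposed array at 5.07, a difference of -1.09 (SE 0.035, 2.124-fold, adjusted p = 2.15e-09) that ran from -1.23 to -0.94 over the alternatives. Nab2 was 1.863-fold lower (log2 -0.90, SE 0.21, adjusted p = 0.00355). Egr1 was lower on 3 of 3 arrays as well, by a difference of -0.30 (SE 0.055, adjusted p = 0.000631), which is within 1.5-fold. For Egr4 the difference was 0.18 with a 95% CI of -0.19 to 0.56, and for Egr3 it was -0.20 with a 95% CI of -0.49 to 0.09.

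BPA alone raised the 4 EGR genes at 4 hr, and the NR4A and NAB genes did not pass, although Nr4a1 was called under 2 of the alternatives. In the second set 2.83% of all probes were called higher and 1.41% lower, and the median over the 8 members was 0.95, against -0.06 over all genes tested. Egr4 read -4.97, -5.25 and -5.47 in the controls of this set, all well above background, and -1.03, -0.53 and -0.52 after BPA. It rose by 4.54 (SE 0.26, 23.25-fold, adjusted p = 0.000128), and within the slide that held 1 control and 2 BPA arrays by 4.19.

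Egr2 read 0.42, -0.26 and 0.08 in these controls and 1.25, 2.16 and 1.85 after BPA, with a rise of 1.67 (SE 0.35, 3.188-fold, adjusted p = 0.0301). Egr1 read 3.49, 3.59 and 3.29 and then 4.26, 4.99 and 4.73, a rise of 1.21 (SE 0.22, 2.309-fold, adjusted p = 0.0182). Egr3 read -2.98, -3.01 and -3.41 and then -2.43, -1.65 and -2.11, a rise of 1.07 (SE 0.24, 2.103-fold, adjusted p = 0.0383). The groups do not overlap for any of the 4 EGR genes, but the 3 smaller calls were fragile. BPA 4-hr calls were lost for Egr1, Egr2, Egr3 and Egr4 with normexp correction, where the differences were 1.22, 1.54, 0.70 and 2.36, and for the same 4 with slide as a fixed block, where they were 1.00, 1.13, 0.71 and 4.19. The Egr3 call was also lost with most of the other settings, among them scaling to the median, quantile normalization and no filter on dim probes, and on leaving out any 1 of the 9 arrays of its set, the Egr1 call without BPA 4-hr replicate 2 (1.04) or 3 (1.18) or control replicate 3 (1.12), and the Egr2 call without these (1.47, 1.63 and 1.67) or control replicate 2 (adjusted p = 0.101), with no filter on dim probes (adjusted p = 0.0503) or with the replicate block (adjusted p = 0.0612).

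Nr4a1 did not pass after BPA at 4 hr. It read 2.26, 2.50 and 2.43 in controls and 2.96, 3.30 and 3.43 after BPA, so the groups do not overlap, and the difference was 0.83 (95% CI 0.37 to 1.30, adjusted p = 0.0585). It was called, at the same difference, with error weights (adjusted p = 0.0478) and with only probes above background on every array (adjusted p = 0.0496). Nr4a2 read 0.88, -0.17 and 0.40 in controls and 1.08, 1.16 and 0.67 after BPA, with overlap and a difference of 0.60 (95% CI -0.19 to 1.39, adjusted p = 0.402). No array of this set measured Nr4a3 well above background. Nab1 differed by 0.10 (95% CI -0.45 to 0.66) and Nab2 by -0.19 (95% CI -0.82 to 0.43).

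**Figure D2:**
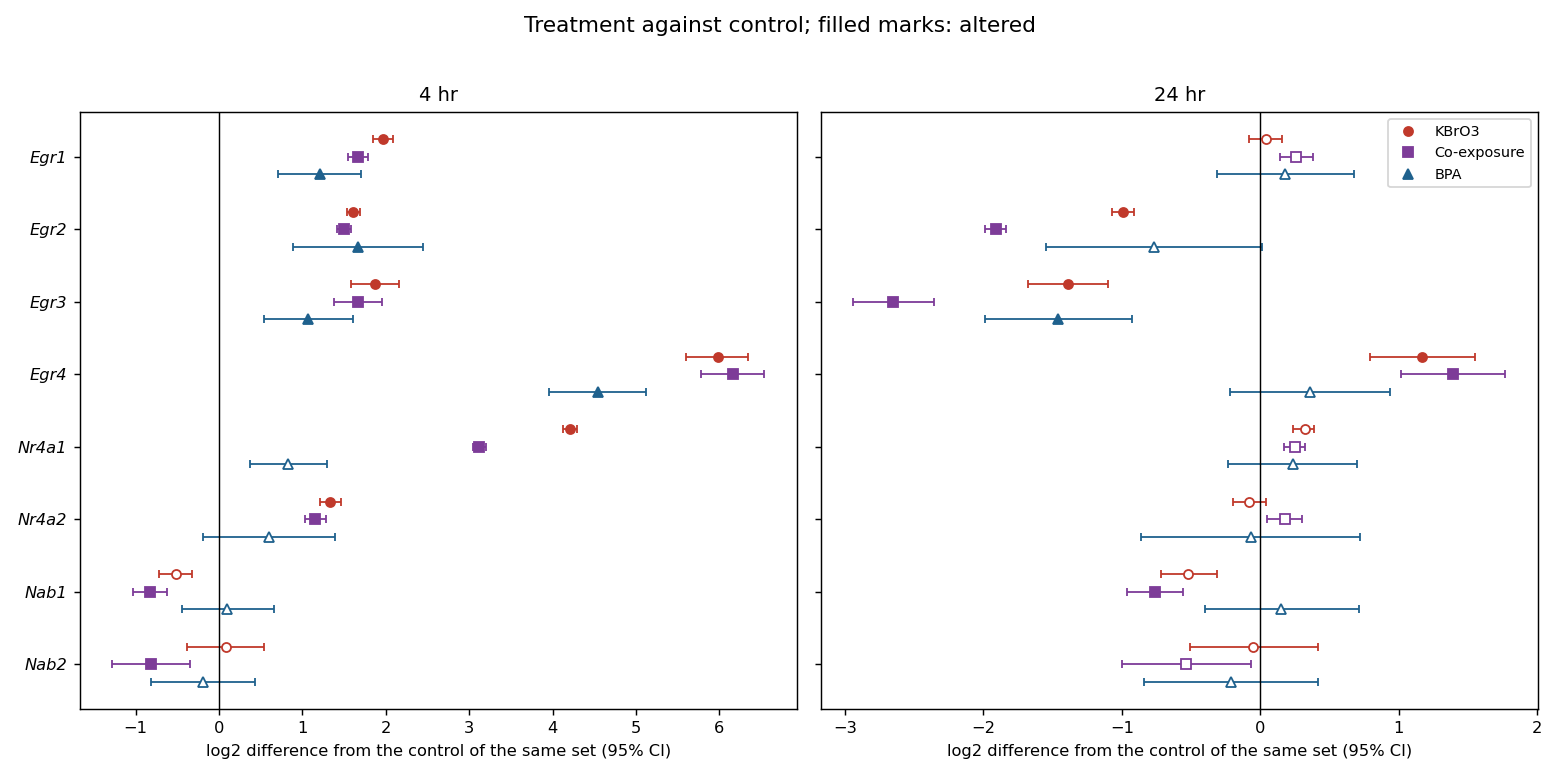
Log2 differences of the 8 tested members from the controls of their own set are plotted on the x axis, at 4 hr on the left and 24 hr on the right, with 95% confidence intervals over 3 arrays a group and filled marks for altered members. At 4 hr Egr4 lies at 5.98 after KBrO3, 6.16 after co-exposure and 4.54 after BPA, and at 24 hr Egr2 and Egr3 lie below 0 in all 3 treatments.

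The effects of the agents were compared across the sets in 1 fit over 27180 probes, each effect taken against its own controls. At 4 hr the KBrO3 effect exceeded that of BPA for 3 of the 8 members, against 16.0% of probes higher and 16.6% lower. Nr4a1 differed by 3.38 (SE 0.15, adjusted p = 3.37e-11), the fitted Egr4 value, which rests on first-set controls of which 1 of 3 was well above background, by 1.44 (SE 0.47, adjusted p = 0.0228) and Egr1 by 0.76 (SE 0.19, adjusted p = 0.0042). The Nr4a1 difference was called under every alternative run, while Egr1 and Egr4 were not called with the Bonferroni limit, with normexp correction (1.02 and 0.26) or without BPA 4-hr replicate 1 (0.56 and 1.27). The Egr4 call was also lost without BPA 4-hr replicate 3 (1.53) or control replicate 1 of the second set (1.31), and the Egr1 call with quantile normalization (0.49). For Egr2 the difference was -0.06 with a 95% CI of -0.60 to 0.47, and for Nr4a2 it was 0.73 with a 95% CI of 0.14 to 1.33 (adjusted p = 0.0522, and 0.0298 with the replicate block). Nr4a2 was also called without BPA 24-hr replicate 1 (0.73), control replicate 3 of the first set (0.77) or control replicate 2 of the second (1.00). Egr3 differed by 0.80 (95% CI 0.03 to 1.57, adjusted p = 0.105) and was called with error weights (0.78), no array weights (0.80), quantile normalization (0.85), scaling to the median (0.80) and without KBrO3 24-hr replicate 1 (0.80), but stood at -0.54 with normexp correction. Nab1 was called at -0.62 with error weights and with no array weights. Array set, extraction software version and agent cannot be told apart in the levels, so levels are not compared across sets. At 24 hr limma called 0 of the 8 members in this comparison and 1, Nab1, had an unadjusted p below 0.05, against 8.51% of probes higher and 12.9% lower, while the second Nab1 probe was called at 1.19 (SE 0.33, adjusted p = 0.0141). In that comparison Nab1 was called at -0.67 with error weights and with no array weights, and Egr4 at 0.81 with no array weights and at 1.07 without control replicate 2 of the first set.

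BPA differed in what it added to untreated cells and to KBrO3-treated cells at 4 hr. For 5 of the 8 members the difference between co-exposure and KBrO3 lay below that between BPA and control, against 4.92% of probes lower and 3.18% higher. Egr4 differed by 4.54 between BPA and control and by 0.18 (95% CI -0.19 to 0.56, not altered) between co-exposure and KBrO3, and the difference of these was -4.36 (SE 0.47, adjusted p = 9.13e-06). Nr4a1 differed by -1.92 (SE 0.15, adjusted p = 1.75e-07), Egr2 by -1.78 (SE 0.26, adjusted p = 0.000219), Egr1 by -1.51 (SE 0.19, adjusted p = 5.41e-05) and Egr3 by -1.27 (SE 0.37, adjusted p = 0.038). With normexp correction the Egr4 difference was -2.19 and not called, and Egr3, at -0.83, was not called either. The Egr3 call was also lost without BPA 4-hr replicate 2 (-1.07) or 3 (-1.30), control replicate 2 (-1.34) or 3 (-1.14) of the second set, or BPA 24-hr replicate 2 or 3 (-1.27 both). At 24 hr limma called 0 of the 8 members in this comparison and 0 at an unadjusted p below 0.05, against 1.05% of probes higher and 1.31% lower, with Egr2 at -0.15 (95% CI -0.69 to 0.39) and Egr3 at 0.20 (95% CI -0.57 to 0.97).

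**Figure D3:**
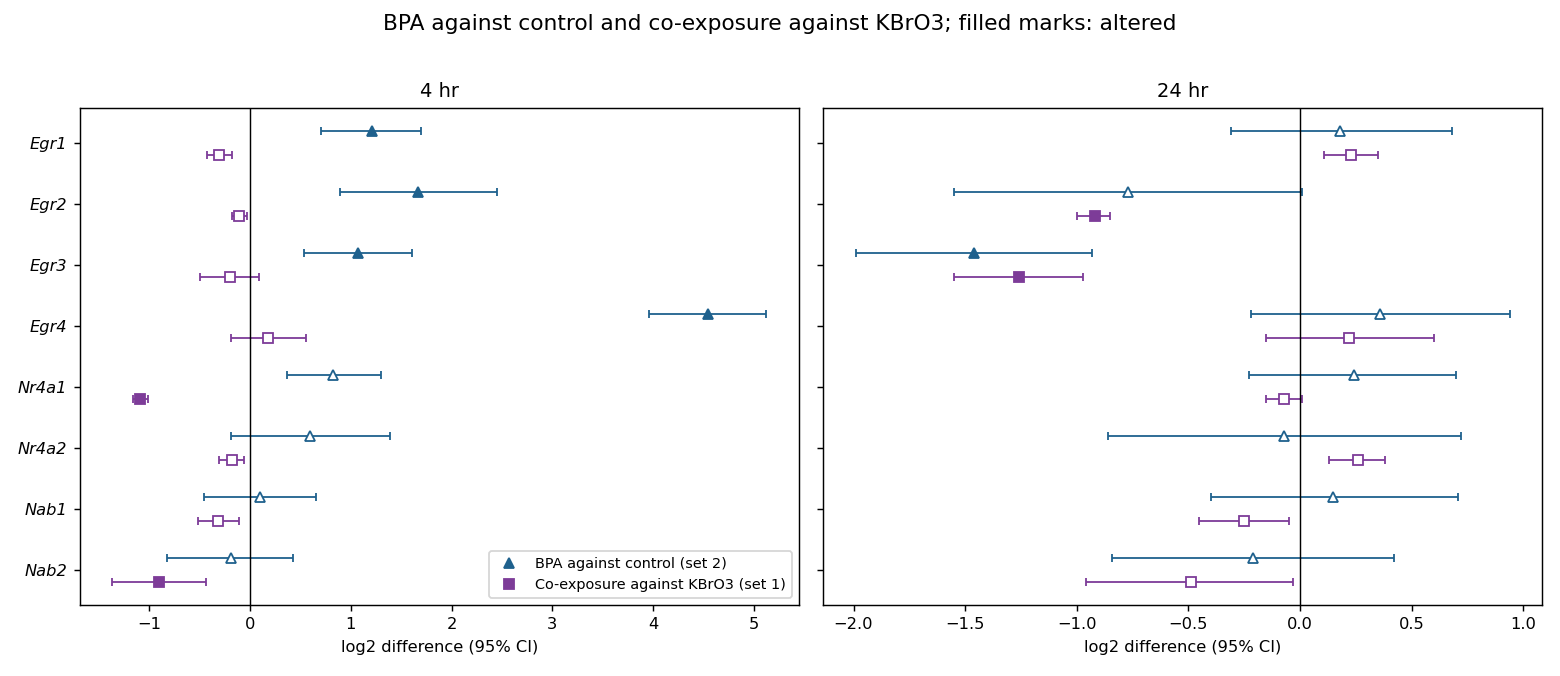
For the 8 tested members the x axis gives the log2 difference between BPA and control (triangles, second set) and between co-exposure and KBrO3 (squares, first set), with 95% confidence intervals, at 4 hr on the left and 24 hr on the right and with filled marks for altered members. The Egr4 marks lie at 4.54 and 0.18 at 4 hr and at 0.36 and 0.22 at 24 hr.

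At 24 hr after KBrO3 the induction had gone from most members, and Egr2 and Egr3 lay below the controls. Of the 8 members 1 was higher and 2 lower, against 14.1% of probes higher and 19.1% lower. Egr2 read -1.38, -1.32 and -1.34, below every control, a difference of -0.99 (SE 0.036, 1.986-fold, adjusted p = 2.83e-10). Egr3 read -5.07, -5.54 and -5.52, with 2 of the 3 arrays well above background, a fitted difference of -1.39 (SE 0.13, adjusted p = 1.56e-06) whose size is uncertain so near the background.

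Egr4 read -4.50, -4.27 and -4.45 at 24 hr after KBrO3, above controls of which 1 of 3 was well above background, with a fitted difference of 1.17 (SE 0.17, adjusted p = 6.94e-05). With normexp correction that sign turned, to -1.14 (adjusted p = 0.051). Nr4a1 read 2.22, 2.25 and 2.26, above every control by 0.32 (SE 0.035, adjusted p = 6.07e-06) and within 1.5-fold. Egr1 was back at 3.75, 3.88 and 3.90, a difference of 0.04 (95% CI -0.08 to 0.16), and Nr4a2 differed by -0.08 (95% CI -0.20 to 0.04).

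Egr2, Egr3 and Nab1 were lower than in controls in co-exposed cells at 24 hr, and Egr4 was called higher. The counts were 1 member higher and 3 lower of 8, against 15.9% and 23.5% of probes. Egr2 read -2.28, -2.28 and -2.25, a difference of -1.91 (SE 0.036, 3.767-fold, adjusted p = 6.04e-13). Egr3 read -6.85, -6.63 and -6.42, not well above background on any of the 3 arrays, so it was at least 2.423-fold lower than in controls (fitted adjusted p = 3.37e-09). Here the bound takes, for each co-exposed array, the higher of the lowest signal that was well above background and the Egr3 signal itself.

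Egr4 read -4.17, -4.20 and -4.19 at 24 hr after co-exposure, a fitted difference of 1.39 (SE 0.17, adjusted p = 1.36e-05) from the same controls, and of -0.89 with normexp correction. Nab1 read 1.99, 2.10 and 2.33, a difference of -0.76 (SE 0.092, 1.698-fold, adjusted p = 1.11e-05), whereas its second probe gave 0.13 (SE 0.1, adjusted p = 0.267). Scaling to each array's median moved all values of this comparison by 0.32, and with it Nab1 was at -0.45 and inside the fold limit, as it was with normexp correction (-0.44). Nab2 read -0.20, 0.07 and 0.65, overlapping the controls, with a difference of -0.54 (SE 0.21, adjusted p = 0.0396) within 1.5-fold, and without co-exposure 24-hr replicate 3 it was called at -0.78. In both comparisons with the controls at 24 hr in the first set, treatment cannot be told apart from slide.

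Directly against KBrO3 alone at 24 hr, Egr2 was lower after co-exposure, the fit also called Egr3, and no other member was altered (Nab2 was called at -0.73 without co-exposure 24-hr replicate 3 and at -0.67 without KBrO3 24-hr replicate 3), against 8.23% of probes lower and 5.35% higher. Egr2 differed by -0.92 (SE 0.036, 1.897-fold, adjusted p = 2.99e-09) over all arrays and by -0.95 within the slide that held 2 arrays of each group. For Egr3 the fitted difference was -1.26 (SE 0.13, adjusted p = 9.82e-06), -1.21 within that slide and -0.19 with normexp correction, but no co-exposed array was well above background and the KBrO3 mean of -5.38 lies below the limit used for bounds, so no fold can be given and the order of these groups was not established for Egr3. Nr4a1, which had separated these treatments at 4 hr, differed by -0.07 (95% CI -0.15 to 0.01, adjusted p = 0.121) at 24 hr.

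BPA alone at 24 hr lowered Egr3 and altered no other member, against 2.02% of probes lower and 1.39% higher. Egr3 read -4.51, -4.71 and -4.56, below every control, a difference of -1.46 (SE 0.24, 2.752-fold, adjusted p = 0.0138), and within the 2 slides that held 1 array of each group it was -1.50 and -1.30. That call was lost without BPA 24-hr replicate 2, where the difference was -1.40, without control replicate 1, where it was -1.38, with slide as a fixed block (-1.40, adjusted p = 0.0956) and with normexp correction (-1.31, adjusted p = 0.707). Egr2 read -1.23, -0.77 and -0.09, with 2 of 3 arrays below every control and a difference of -0.77 (95% CI -1.55 to 0.01, adjusted p = 0.278). For Egr4 the difference was 0.36 (95% CI -0.22 to 0.94) and for Nr4a1 it was 0.24 (95% CI -0.23 to 0.70).

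The fall from 4 to 24 hr was tested within each treatment, and no slide held both times of any treatment. For KBrO3 no other group joined the slides either, so slide and time cannot be told apart there. The co-exposure slides were joined only through the KBrO3 24-hr arrays. After KBrO3 and after co-exposure all 6 induced members were lower at 24 hr, against 27.9% and 35.0% of probes lower and 19.9% and 20.6% higher. After KBrO3 the falls were 28.02-fold for Egr4, 14.84-fold for Nr4a1, 6.052-fold for Egr2, 3.823-fold for Egr1 and 2.664-fold for Nr4a2, and the fitted difference of Egr3, with 2 of 3 arrays well above background at 24 hr, was -3.26. After co-exposure they were 27.27-fold for Egr4, 10.67-fold for Egr2, 7.337-fold for Nr4a1, 2.651-fold for Egr1 and 1.971-fold for Nr4a2. For Egr3 the bound was at least 7.705-fold, which applies to the main processing only. Over the alternatives its fitted difference ran from -4.43 to -2.06, and that of Egr4 from -4.91 to -3.69. The Nr4a2 call after co-exposure was lost with scaling to the median, which moves that comparison by 0.46, and Nr4a2 was then at -0.52. Nab2, at 0.28 (95% CI -0.18 to 0.75) from 4 to 24 hr of co-exposure, was called higher with slide as a fixed block (0.73, adjusted p = 0.0157), with slide as a random block (0.63) and with scaling to the median (0.74). After BPA the 4 EGR genes fell, by 18.1-fold for Egr4, 5.787-fold for Egr3, 5.446-fold for Egr2 and 2.037-fold for Egr1, against 2.79% of probes lower and 1.00% higher. Those 4 calls were lost with normexp correction, where Egr1 to Egr4 differed by -0.89, -2.21, -2.02 and -3.03, and with slide as a fixed block, where they differed by -0.85, -2.03, -2.11 and -3.59. The Egr1 call was also lost without any 1 of the BPA 24-hr arrays (-1.07 to -0.99), BPA 4-hr replicate 2 (-0.86) or 3 (-0.99) or control replicate 1 (-1.03), with scaling to the median (-0.91), and with no filter on dim probes, a fit of only the groups compared or the replicate block (-1.03 each). Nr4a1 had an adjusted p of 0.15 and Nr4a2 of 0.321 in that comparison.

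The course from 4 to 24 hr differed between co-exposure and KBrO3 alone for Nr4a1 and Egr2, and the fit called Egr3 as well, against 11.0% of probes in the positive and 16.3% in the negative direction. This comparison includes the fall after KBrO3, so slide and time cannot be told apart in it either. Nr4a1 fell less after co-exposure, with a log2 difference of 1.02 (SE 0.05, adjusted p = 7.25e-08), and it had been lower at 4 hr. Egr2 fell more, with a difference of -0.82 (SE 0.05, adjusted p = 3.52e-07). For Egr3 the fitted difference was -1.06 (SE 0.19, adjusted p = 0.000629). Its fall after co-exposure is known only as a bound in the main processing and its size changed with the alternatives, so a larger fall than after KBrO3 is not shown. Scaling to the median shifts this comparison by 0.31, and Egr2 then differed by -0.51 and was inside the fold limit, while Egr1 (0.84), Nr4a2 (0.75) and Nab2 (0.72) were called. Egr3 was not called with normexp correction (-0.06) or quantile normalization (-0.57), and Egr1 was called without co-exposure 24-hr replicate 3 (0.59). For Egr4 the difference was 0.04 (95% CI -0.49 to 0.57).

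The 5 groups of the first set were ordered by their mean readings. For Nr4a1 the order was KBrO3 at 4 hr, co-exposure at 4 hr, KBrO3 at 24 hr, co-exposure at 24 hr and control, and the test did not separate the 2 groups at 24 hr. Egr1 ran from KBrO3 at 4 hr through co-exposure at 4 hr and at 24 hr to KBrO3 at 24 hr and control, of which the last 2 did not differ by the test either. Nr4a2 ran from KBrO3 to co-exposure at 4 hr, then co-exposure at 24 hr, control and KBrO3 at 24 hr, and the last 2 were again not separated. For Egr2 and Egr3 the controls stood between the groups at 4 hr and those at 24 hr, and for Egr2 co-exposure at 24 hr was lowest. The test did not separate the groups at 4 hr for Egr3, and their order at 24 hr was not established. Egr4 was high in both groups at 4 hr, which the test did not separate either, and it read low in both at 24 hr and lowest in the controls, but its controls lay above the 24-hr groups with normexp correction.

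Genes known to carry signals to these promoters were counted by the same rule. This list and those below were written with earlier results of these data known, so their counts are not independent support. Of 15 promoter regulators 13 were tested, and after KBrO3 at 4 hr 2 were higher, 2 lower and 9 not altered, with a median of 0.33 against 0.02 over all genes. These counts are not above the 23.0% higher and 22.5% lower of all probes. Elk4, an ETS partner of serum response factor, was up by 1.16 (SE 0.31) and Mef2c, a MADS-box factor, differed by -1.28 (SE 0.087). After co-exposure at 4 hr 3 were higher and 1 lower, against 29.9% and 24.4% of all probes, and Srf, serum response factor itself, was 1.511-fold lower than after KBrO3 alone (log2 -0.60, adjusted p = 1.02e-06). After BPA at 4 hr 1 of 13, Mrtfb, a cofactor of serum response factor, was higher by 1.27 (adjusted p = 0.0394), against 2.83% of all probes.

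Transcripts of the ERK and RSK kinases were altered in both directions, at shares not far from those of all probes. All 10 were tested, and 3 were higher and 3 lower after KBrO3 at 4 hr, against 23.0% and 22.5% of all probes, with Rps6ka3 (RSK2) at 0.96 and Braf at -1.05. After co-exposure 4 were higher and 3 lower, against 29.9% and 24.4%, and after BPA none of the 10 was altered. These are transcript levels and carry no information on kinase activity.

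Other immediate early genes, from a list written with earlier results of these data known, rose widely beside the members. Of 40 listed, 39 were tested, and after KBrO3 at 4 hr 34 were higher and none lower, against 23.0% and 22.5% of all probes, with a median log2 difference of 2.10 against 0.02 over all genes. Dusp2, a phosphatase of MAP kinases, rose by 6.55 (SE 0.07), Ptgs2, the inducible cyclooxygenase, by 6.08 (SE 0.064) and Atf3, a stress-induced bZIP factor, by 5.89 (SE 0.053). After co-exposure 30 were higher and 1, the matricellular gene Ccn1, lower, against 29.9% and 24.4% of all probes, and after BPA 19 were higher and none lower, against 2.83% and 1.41%, led by Nfkbiz at 3.11, Ptgs2 at 2.94 and Atf3 at 2.56. Against KBrO3 alone, co-exposure at 4 hr gave 2 of the 39 higher and 10 lower, against 11.9% and 8.21% of all probes, the lower ones including Arc at -1.30, Maff at -1.25 and Ccn1 at -1.67, beside the -1.09 of Nr4a1.

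**Figure D4:**
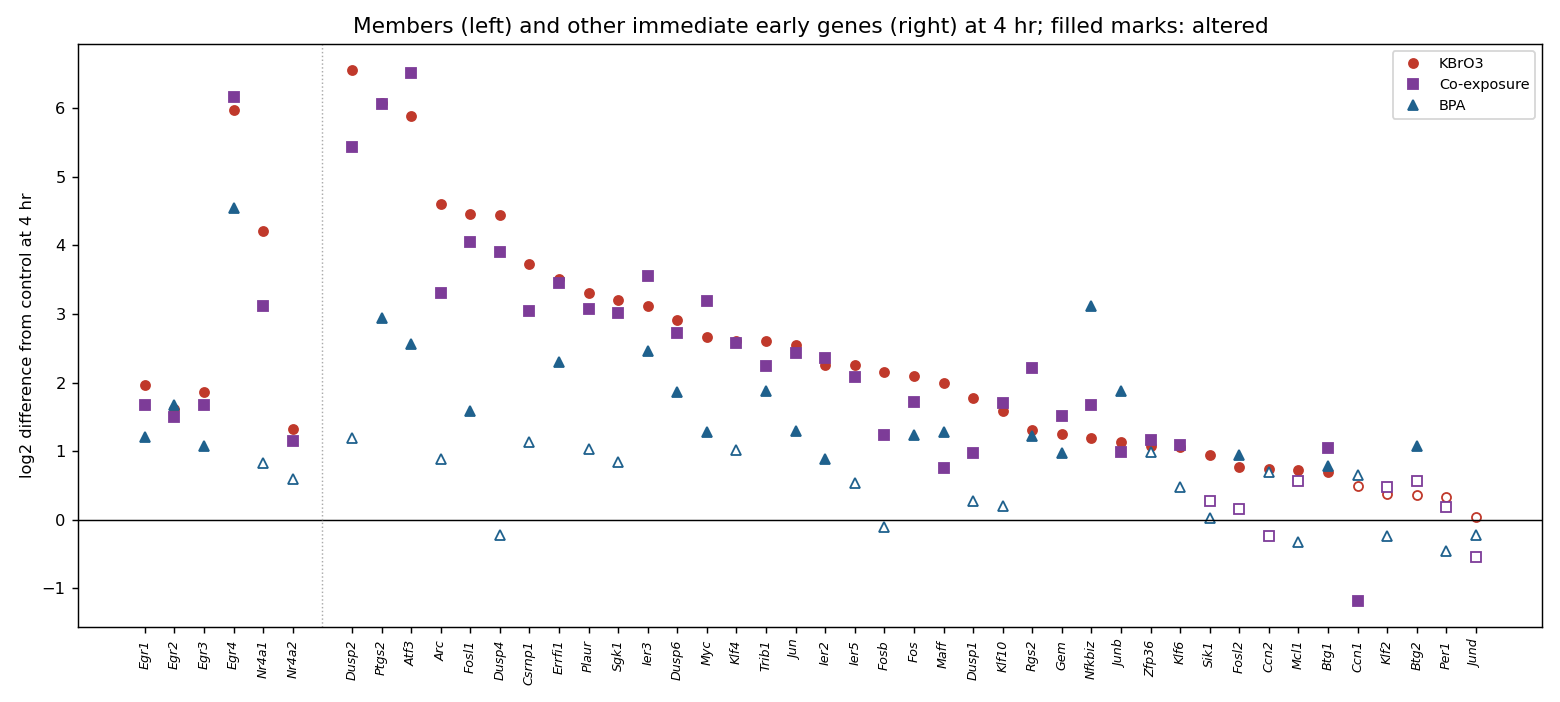
The y axis gives the log2 difference from the control of the same set at 4 hr for 6 members on the left and 39 other immediate early genes on the right, ordered by their KBrO3 value, with filled marks for altered genes. After KBrO3 the values run from 6.55 for Dusp2 down to 0.04, and the BPA values lie below the KBrO3 values for Nr4a1, Egr4 and Egr1.

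Known EGR target genes were counted in the same way, from a list also written with earlier results known. Of 15 tested, which include the member Nab2, 8 were higher and 3 lower after KBrO3 at 4 hr, against 23.0% and 22.5% of all probes, so the count of lower genes is near the background. After co-exposure 8 were higher and 2 lower, against 29.9% and 24.4%. Hbegf, an EGF-receptor ligand, rose by 5.37 (SE 0.068), Vegfa, the endothelial growth factor, by 3.42 (SE 0.04) and Cdkn1a, which encodes the cell cycle inhibitor p21, by 3.08 (SE 0.073) after KBrO3. Among those lower, Pdgfb, a growth factor, differed by -1.14 and Icam1, an adhesion molecule, by -0.89. After BPA at 4 hr 6 were higher and none lower, against 2.83% and 1.41% of all probes, and Icam1 led them at 3.72 (adjusted p = 0.000186). Between co-exposure and KBrO3 at 4 hr 2 of the 15 were higher and 2 lower, against 11.9% and 8.21% of all probes, with Fasl, a death ligand, at 2.45 (SE 0.91), Gadd45a at 1.56 (SE 0.076), Nab2 at -0.90 and Pdgfa, a growth factor, 1.997-fold lower (adjusted p = 9.53e-09).

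Partners of the members were counted last. Of the retinoid X receptors with which NR4A proteins can pair, Rxra was lower after KBrO3 at 4 hr by a difference of -0.65 (SE 0.082) and after co-exposure by -1.19 (SE 0.082), and Rxrb and Rxrg were not altered. Of 6 NuRD subunits that work with NAB proteins, Mta2 was higher after KBrO3 at 4 hr at 1.27 (SE 0.036) and the other 5 were not altered. After co-exposure Mta2 was higher at 1.42 (SE 0.036), Chd3, a chromatin remodeler of the complex, was lower at -0.80 (SE 0.28, adjusted p = 0.0206) and the other 4 were not altered. The counts of NuRD subunits are not above the shares of all probes. After BPA at 4 hr none of these 9 partners was altered.

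Likeness was measured as Pearson's r over the 15 arrays of the first set, among 14534 genes, and is a description because all arrays share 5 groups. Nr4a1 was most like Krt16, an epithelial keratin, at 1.000 and Cbr3, a carbonyl reductase, at 0.997. Egr4 was most like Ptgs2 at 0.997, Egr1 was nearest to Nifk and Plk3 at 0.998, and Nr4a2 nearest to Osgin1 at 0.996. Egr2 and Egr3 were near each other at 0.995. Among the members r in the first set was 0.99 for Egr1 with Nr4a1 and with Nr4a2 but 0.85 for Egr1 with Egr2, and in the 9 arrays of the second set it was 0.91, 0.53 and 0.86 for these pairs.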

How the data were processed

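RNA of 24 samples was hybridized to Agilent 1-color arrays (Cy3), 3 arrays for each of 8 groups, and the labels, which give the groups, and the Methods call the arrays biological replicates. The authors deposited scanner files of the Feature Extraction software (9.5.3.1 in the file headers of the first set and 12.0.0.7 in those of the second, and 12.0 in the submitters' processing notes), whose processed signal is a background-corrected intensity on a linear scale. The deposited series table held the same intensities. Here, log2 of the processed intensity minus the 75th percentile of its array was used, outlier spots were set aside and spots of 1 probe were averaged. A probe entered the test of a set if all 3 arrays of 1 or more groups measured it well above background, which left 27310 and 31809 probes. Each set was fitted with limma 3.58.1 (R 4.3.3, lmFit and eBayes, Benjamini-Hochberg over all probes), and every adjusted p comes from it. Differences between the sets came from 1 fit of all 24 arrays with array weights. A member was called altered at an adjusted p below 0.05 and a change beyond 1.5-fold, and all-gene medians use 1 probe per gene.

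The named genes were all 9 members, each through the brightest of its probes over all arrays, and up to 3 genes with the largest change in each direction from each gene list; some genes that these rules name are not reported here. The members and lists were chosen with earlier results of these data known. The number of arrays limits the precision, and p-values measure the spread between these arrays. The script was tested on simulated data. Alternatives covered scaling to the median, quantile normalization, normexp correction (offset 50; from the median spot signal in the second set), the filter on dim probes, outlier spots, error weights, array weights, the dimmer probe, slide and replicate blocks, smaller fits, the Bonferroni limit of the Methods and leaving out each array.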

Additional observations from a re-analysis of the deposited data

Results flagged for a closer look

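A test of the difference between effects was passed by the members below, given as log2 values from limma fits adjusted over all probes.

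The KBrO3 effect at 4 hr exceeded the BPA effect for Nr4a1 (3.38, adjusted p = 3.37e-11), Egr1 (0.76, adjusted p = 0.0042) and, in the fit, Egr4 (1.44, adjusted p = 0.0228), whose first-set controls were well above background on 1 of 3 arrays and which was at 0.26 (adjusted p = 0.864) with normexp correction. The effect of adding BPA to KBrO3 lay below that of BPA alone at 4 hr for Egr4 (-4.36, adjusted p = 9.13e-06), Nr4a1 (-1.92, adjusted p = 1.75e-07), Egr2 (-1.78, adjusted p = 0.000219), Egr1 (-1.51, adjusted p = 5.41e-05) and Egr3 (-1.27, adjusted p = 0.038). With normexp correction Egr4 was at -2.19 (adjusted p = 0.519) and Egr3 at -0.83 (adjusted p = 1), and neither was called. These comparisons join the array sets, and the controls of each set were scanned apart. In the one for BPA added to KBrO3, the co-exposed and KBrO3 arrays also shared no slide, so slide and treatment cannot be told apart. The change from 4 to 24 hr differed between co-exposure and KBrO3 for Nr4a1 (1.02, adjusted p = 7.25e-08) and Egr2 (-0.82, adjusted p = 3.52e-07). No slide held both times of KBrO3, so slide and time cannot be told apart in that comparison. The fit also called Egr3 (-1.06, adjusted p = 0.000629), but at 24 hr Egr3 was not well above background on any co-exposed array, so the size of its fall there is open and a larger fall is not shown.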

How the results depend on the processing

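Of the alternatives for single members 3562 values kept their call or lack of one, 98 lost the call, 30 gained it and 4 turned sign with a call in either setting; values called in neither setting could also change sign and are counted among the 3562. The 4 were Egr4 against control at 24 hr with normexp correction (-1.14 after KBrO3, -0.89 after co-exposure) and, with its dimmer probe, Nab1 in co-exposure against control at 24 hr (0.13) and in the KBrO3 effect minus the BPA effect at 24 hr (1.19). Counts of altered members stayed within 1.5 times in 426 cases and left that range in 41. The cause was not tested.

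With the Bonferroni limit the count was 2 for co-exposure against control at 24 hr, 1 for co-exposure against KBrO3 at 4 hr and at 24 hr, 1 for BPA at 4 hr, 0 for BPA at 24 hr, 1 for BPA at 24 against 4 hr, 1 for the KBrO3 effect minus the BPA effect at 4 hr and 3 for BPA added to KBrO3 minus BPA alone at 4 hr. Of all probes that limit called between 0% (BPA at 24 against 4 hr, higher) and 11.1% (co-exposure against control at 24 hr, lower) in these comparisons. With normexp correction it was 2 for co-exposure against control and 1 against KBrO3 at 24 hr, 1 for the KBrO3 effect minus the BPA effect and 3 for BPA added minus BPA alone at 4 hr. For BPA at 4 hr, at 24 hr and at 24 against 4 hr, limma called 0 with normexp correction (4, 1 and 4 at an unadjusted p below 0.05) and 0 with slide as a fixed block (5, 2 and 3). With the dimmer probe the count was 2 for co-exposure against control and 1 against KBrO3 at 24 hr, 0 for BPA at 24 hr, where the dimmer Egr3 probe was not tested, and 1 for the KBrO3 effect minus the BPA effect at 24 hr. With only probes above background on every array, which tests fewer members, it was 1 for KBrO3 and 2 for co-exposure against control at 24 hr, 1 for co-exposure against KBrO3 at 24 hr and 3 for BPA added minus BPA alone at 4 hr. Without a filter on dim probes and with the replicate block it was 2 for BPA at 4 hr. The KBrO3 effect minus the BPA effect gave 5 at 4 hr with error weights or no array weights, and at 24 hr 1 and 2. Scaling to the median gave 5 for the change from 4 to 24 hr.

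When single arrays were left out, the counts were 4 to 5 for co-exposure against control and 2 to 3 against KBrO3 at 24 hr, 3 to 4 for the change from 4 to 24 hr, 1 to 3 for BPA at 4 hr, 0 to 1 at 24 hr and 3 to 4 at 24 against 4 hr, 1 to 4 and 0 to 1 for the KBrO3 effect minus the BPA effect at 4 and 24 hr, and 4 to 6 for BPA added minus BPA alone at 4 hr. The other counts did not move. Replicate numbers did not pair the arrays on average, with a mean correlation of deviations of -0.0294 over 30 pairs in the first set and 0.00201 over 9 pairs in the second. Single pairs ran from -0.212 to 0.106 in the first set and from -0.384 to 0.648 in the second, so the mean does not settle pairing there. Beside BPA at 4 hr, the replicate block ended the Egr3 call for BPA added minus BPA alone at 4 hr (-1.27, adjusted p = 0.0633) and the Egr1 call for BPA at 24 against 4 hr (-1.03, adjusted p = 0.0747), and it added Nr4a2 to the KBrO3 effect minus the BPA effect at 4 hr (0.73, adjusted p = 0.0298). Slide as a fixed block could not be fitted where no slide joined the groups. Signal over background limits Egr3, Egr4 and Nr4a3 most.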

Other observations

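The other immediate early genes at 24 hr gave 12 higher and 5 lower of 39 after KBrO3 (median log2 difference 0.09, all genes -0.07), against 14.1% and 19.1% of all probes, and 14 higher and 7 lower after co-exposure (0.26, all genes -0.06), against 15.9% and 23.5%. Dusp2 was still 3.01 above control after co-exposure and 2.65 after KBrO3. After BPA at 24 hr 5 were higher and 2 lower, against 1.39% and 2.02%, and Atf3 was at 1.86 (adjusted p = 0.00448) while Arc, a synaptic immediate early gene, was at -1.51 (adjusted p = 0.00802).

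EGR target genes at 24 hr gave 3 higher and 4 lower of 15 after KBrO3, near the 14.1% and 19.1% of all probes. After co-exposure 5 were higher and 5 lower, against 15.9% and 23.5%. BPA at 24 hr gave 2 higher and none lower, against 1.39% and 2.02%, with Gadd45a at 2.36 and Vegfa at 1.26. Cdkn1a was at 1.13 after KBrO3 and 2.78 after co-exposure, and Pdgfb at -1.39 and -2.78. Directly compared, co-exposure at 24 hr was above KBrO3 for Gadd45a, a DNA damage-inducible gene, by 1.70 (adjusted p = 8.37e-09) and for Cdkn1a by 1.65 (adjusted p = 7.65e-09), and below it for Pdgfb by a difference of -1.38 (adjusted p = 9.03e-05).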
